A study of Danio rerio with 4 samples.

Results

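The genes described here are those of glycolysis, of sugar and lactate transport and of glycerol phosphate metabolism in endothelial cells of zebrafish embryos. They were chosen by symbol alone: 78 of the 29027 listed genes matched a fixed pattern of gene names. The 78 members comprised 31 genes for the 10 steps of glycolysis, 7 PFKFB genes, 18 genes of the SLC2A sugar carrier family, 6 genes of the lactate and pyruvate carriers SLC16A1, SLC16A3, SLC16A7 and SLC16A8, 4 other SLC16A genes, 3 L-lactate dehydrogenase genes, ldhd and 5 glycerol phosphate dehydrogenase genes. The remaining 3 members matched by spelling only, since pgam5 encodes a mitochondrial protein phosphatase, pkmyt1 a kinase that inhibits Cdk1, and SLC2A4RG a transcription factor.

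The cells came from trunks and tails of embryos at 47 hours post fertilization and were sorted as positive for both reporters of the Tg(kdrl:EGFP);Tg(lyve1:DsRed) line, which both groups carried. The mutant embryos were tie1 homozygotes (tie1 Homo, 2 libraries), taken only where they had blood flow. They were set against their siblings, wild types and heterozygotes in 1 pool (tie1 WT/Het, 2 libraries), so the sibling libraries may include cells with a single working copy of tie1. The labels do not say whether libraries 1 and 2 of a group came from separate clutches or days, so the spread between them may be technical. The limma p-values rest almost wholly on a trend of variance with level over all genes of these libraries. They do not measure the spread of each gene's own replicates. In bulk RNA, fewer cells of a type and less RNA per cell cannot be told apart.

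Glycolysis splits glucose into pyruvate with a net yield of ATP. Glucose enters through SLC2A carriers and is trapped by hexokinase, phosphofructokinase sets the pace under control of the PFKFB enzymes, and pyruvate is turned to lactate by lactate dehydrogenase and exported by SLC16A carriers. Glycerol phosphate dehydrogenase draws the glycolytic intermediate dihydroxyacetone phosphate off to glycerol phosphate, the backbone of glycerolipids and part of a shuttle of electrons into mitochondria. Endothelial cells are known to take most of their ATP from glycolysis, and in mice the endothelial loss of Pfkfb3 impairs vessel sprouting.

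Values are TPM, a level per transcript length that can be compared between genes. The 4 libraries differed in the level at which genes of other organs appeared. The 95th percentile of 331 sensory receptor and lens crystallin genes, called the background limit here, was 13.8 and 18.8 TPM in the mutant libraries and 3.93 and 6.44 TPM in the sibling libraries. The median log2 fold change of all 28301 tested genes was 1.17. The targeted gene tie1 had 16.7 and 10.2 TPM in the mutant libraries and 61.0 and 31.0 TPM in the sibling libraries. Of 14 endothelial markers examined, 11 and 9 exceeded the limit in mutant libraries 1 and 2, and all 14 did so in each sibling library. Markers of other cells were present too: 8 myeloid markers summed to 829 and 334 TPM in the mutants and to 695 and 642 TPM in the siblings, with 4 and 3 of the 8 above the limit in the mutants and 6 and 7 in the siblings. Of the myeloid sum mfap4 made up 680 and 233 TPM in the mutants and 180 and 137 TPM in the siblings, while lyz, coro1a and lcp1 fell. The 8 epidermal markers found summed to 707 and 263 TPM in the mutants and to 1341 and 890 TPM in the siblings, with 4 and 1 above the limit in the mutants and 7 and 5 in the siblings. Read depth is unknown.

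The pathway was detected unevenly along its length, with 1 or 2 abundant genes at most of the later steps and little signal at the entry. Both sibling libraries had 24 of the 78 members above the limit, and 8 of these exceeded it in all 4 libraries. Those 8 were gapdhs, ldhba, eno3, aldoaa, pfkfb4b, gpia, tpi1b and pgam1a. In all, 37 members exceeded the limit in no library. By library, 13 and 11 members exceeded the limit in the mutants and 35 and 29 in the siblings. Of all 29027 genes, 4912 and 3083 exceeded it in the mutants and 9994 and 9073 in the siblings, and 16542 did so in no library. The lower number of members above the limit in the mutants is therefore not particular to the pathway.

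**Figure D1:**
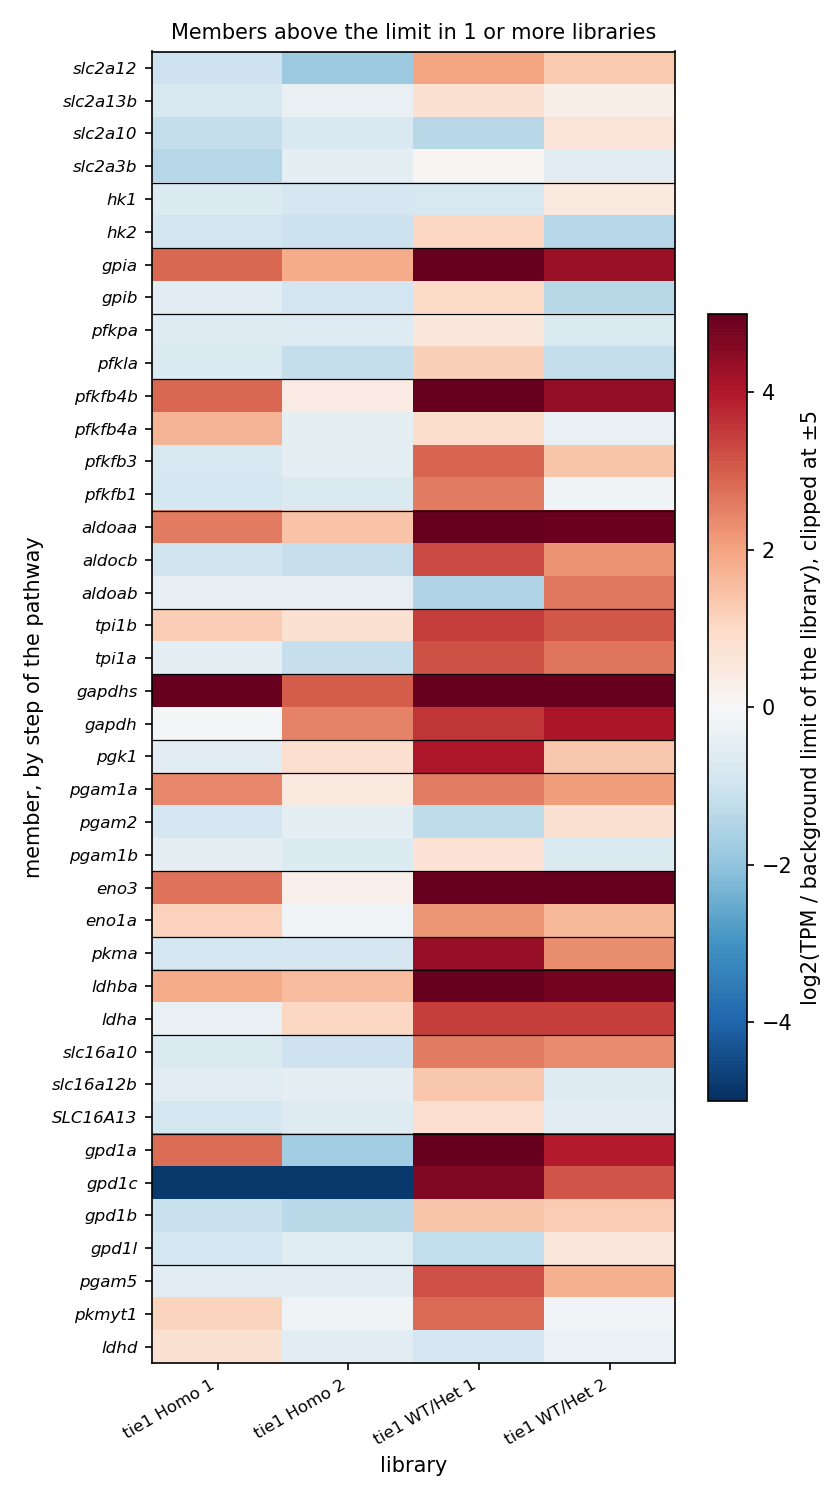
Heat map of 40 of the 41 members that exceeded the background limit in at least 1 library, ordered by step of the pathway from sugar carriers to glycerol phosphate dehydrogenases, with other members at the bottom. Colour is the log2 ratio of TPM to the limit of that library (red above, blue below, clipped at 5 in both directions); gpd1c is dark blue in both mutant libraries and red in both sibling libraries.

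Transport and the first committed steps had few members above background. The 18 SLC2A genes reached at most 14.5 TPM in the mutants and 16.1 TPM in the siblings, and none of them exceeded the limit in either mutant library. This range includes slc2a1a and slc2a1b, the zebrafish counterparts of GLUT1, the main glucose carrier of mammalian endothelium. Of slc2a1a, 10.3 and 13.2 TPM were found in the mutants and 3.38 and 3.32 TPM in the siblings, each at or under the limit of its library. The only SLC2A genes above the limit in both sibling libraries were slc2a12 and slc2a13b. For slc2a12, a glucose carrier gene, the values were 6.76 and 5.33 TPM in the mutants and 15.4 and 16.1 TPM in the siblings. The groups of slc2a12 did not overlap, with the mutants lower, but the difference did not pass the test (limma log2 fold change -1.26 ± 0.63 SE, adjusted p-value 0.0765).

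The hexokinase genes hk1 and hk2, which phosphorylate glucose, reached at most 10.4 TPM in the mutants and 8.96 TPM in the siblings. Neither exceeded the limit in a mutant library, and each exceeded it in 1 sibling library, hk1 in sibling library 2 and hk2 in sibling library 1. The 6 phosphofructokinase genes ranged from 5.51 to 12.0 TPM in the mutants and from 1.69 to 8.91 TPM in the siblings. None of these 6 was above the limit in a mutant library, and in the siblings pfkla (8.91 TPM) and pfkpa (5.71 TPM) exceeded it in library 1 alone. The other glucose phosphorylating kinases examined (hkdc1, gck and adpgk) were at or under the limit in all 4 libraries. In the mutants these enzymes could not be told from background, which does not show that they are absent, and in the siblings hk1, hk2, pfkla and pfkpa each exceeded the limit in 1 of 2 libraries. The monocarboxylate carriers SLC16A1, SLC16A3, SLC16A7 and SLC16A8 were likewise at or under the limit in every library, for all 6 of their genes.

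Among the other SLC16A genes, slc16a10, a carrier of aromatic amino acids and thyroid hormone, stood out by its level. It had 8.33 and 9.29 TPM in the mutants and 23.9 and 33.5 TPM in the siblings, so that only the siblings were above their limits. Its difference fell short of the threshold (limma log2 fold change -1.58 ± 0.71 SE, adjusted p-value 0.0520). With 1 gene of 4 above the limit in both sibling libraries, slc16a10 had the highest sibling TPM of all carriers in the list.

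The PFKFB genes encode bifunctional enzymes that make and break the strongest allosteric activator of phosphofructokinase, and 1 of them was abundant. The most abundant, pfkfb4b, had 101 and 24.9 TPM in the mutants and 253 and 134 TPM in the siblings. All mutant values of pfkfb4b lay below all sibling values, and all 4 were above the limit, yet the difference did not pass (limma log2 fold change -1.85 ± 0.93 SE, adjusted p-value 0.0786). Its paralogue pfkfb4a was called higher in the mutants, with 45.4 and 13.8 TPM in the mutants and 7.17 and 4.98 TPM in the siblings (limma log2 fold change 1.91 ± 0.67 SE, adjusted p-value 0.0219). Only 1 mutant value of pfkfb4a, that of library 1, was above its limit, and so was the value of sibling library 1. Relative to the limits pfkfb4a stood at 3.28 and 0.73 in the mutants and at 1.82 and 0.77 in the siblings, so these groups overlapped. The fold change of pfkfb4a lay 0.74 above the median log2 fold change of all tested genes. The call on pfkfb4a was lost without mutant library 1 (log2 fold change 1.08), sibling library 1 (2.13) or sibling library 2 (1.68). Its direction was kept in all 14 alternatives tried, of which the filters, the fit without a trend and the replicate block cannot change it. For pfkfb3, whose mouse counterpart is the best studied in sprouting vessels, the values were 7.86 and 13.3 TPM in the mutants and 29.8 and 16.9 TPM in the siblings. Both mutant values of pfkfb3 were under their limits and both sibling values above, and the difference did not pass (limma log2 fold change -1.06 ± 0.70 SE, adjusted p-value 0.181). The fourth PFKFB gene above a limit, pfkfb1, had 7.50 and 11.5 TPM in the mutants and 23.6 and 5.64 TPM in the siblings, with only sibling library 1 above its limit.

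**Figure D2:**
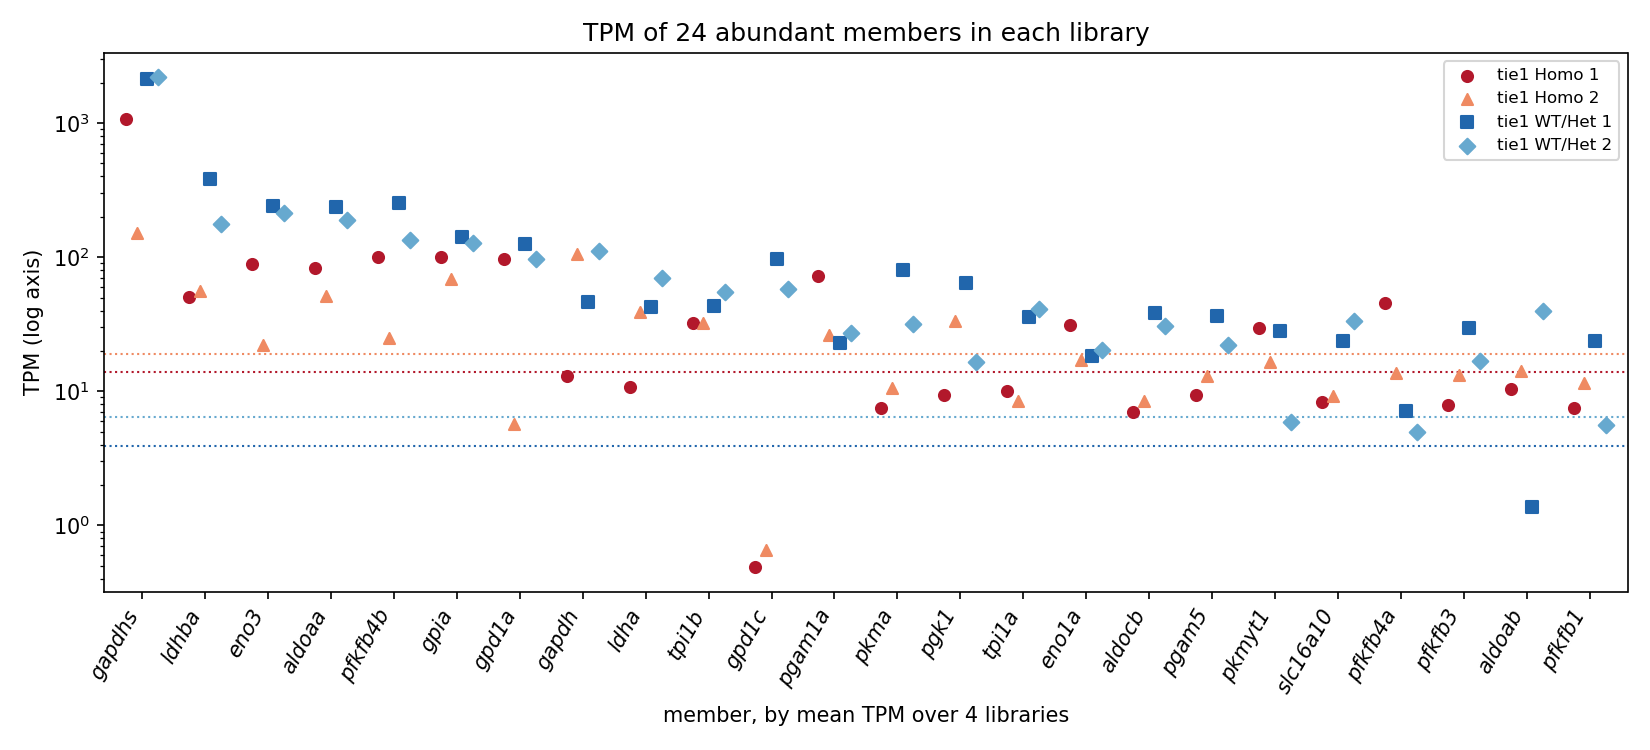
TPM (log axis) of 24 of the 25 members with the highest mean over the 4 libraries, ordered by that mean. Red symbols are the 2 tie1 Homo libraries and blue symbols the 2 tie1 WT/Het libraries, and dotted lines are the background limits in the colour of each library; gapdhs stands at 1078 TPM or more in all but mutant library 2 (153 TPM), and gpd1c is under 1 TPM in both mutant libraries.

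Glucose phosphate isomerase and aldolase act before and after phosphofructokinase, and the isomerase was carried by 1 paralogue. Among the aldolases aldoaa was the most abundant in every library. It made up 70.1% and 51.7% of the aldolase TPM in the mutants and 80.7% and 66.6% in the siblings. The isomerase gene gpia had 101 and 68.3 TPM in the mutants and 141 and 127 TPM in the siblings. Its groups did not overlap, but it differed least among the 6 most abundant members and did not pass (limma log2 fold change -0.68 ± 0.94 SE, adjusted p-value 0.532). Aldolase aldoaa had 83.2 and 51.1 TPM in the mutants and 236 and 190 TPM in the siblings, without passing (limma log2 fold change -1.68 ± 0.94 SE, adjusted p-value 0.113).

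Among the other aldolases, aldocb, a counterpart of the aldolase C best known from mammalian brain, fell in the mutants. It had 6.96 and 8.40 TPM there, both under the limit, against 38.4 and 30.6 TPM in the siblings (limma log2 fold change -2.03 ± 0.72 SE, adjusted p-value 0.0222). The call on aldocb was lost without mutant library 1 (log2 fold change -1.91), mutant library 2 (-2.15) or sibling library 1 (-1.87). For aldoab the 2 sibling libraries differed most from each other, with 10.4 and 14.2 TPM in the mutants and 1.38 and 39.6 TPM in the siblings. The summed TPM of 17 skeletal muscle markers differed in the same sense, with 360 and 531 in the mutants and 694 and 1849 in the siblings, and 8 and 9 of the 17 were above the limit in the mutants and 14 and 15 in the siblings. The part of muscle RNA in the aldoab values was not tested.

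The triose phosphate isomerase genes tpi1a and tpi1b interconvert the products of aldolase and showed unequal differences. Expression of tpi1a fell, to 10.1 and 8.49 TPM in the mutants, both under the limit, against 35.5 and 40.8 TPM in the siblings (limma log2 fold change -1.93 ± 0.74 SE, adjusted p-value 0.0286). The call on tpi1a was lost without any 1 of the 4 libraries, with log2 fold changes of -2.04 and -1.82 without mutant libraries 1 and 2 and -2.03 and -1.83 without sibling libraries 1 and 2. The values of tpi1b were 32.3 and 32.1 TPM in the mutants and 43.0 and 55.0 TPM in the siblings. All 4 values of tpi1b were above the limit and its groups did not overlap, but the difference was small and did not pass (limma log2 fold change -0.58 ± 0.85 SE, adjusted p-value 0.555).

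Glyceraldehyde phosphate dehydrogenase, the step that reduces NAD, was the most abundant of all, through gapdhs. This gene fell to 1078 and 153 TPM in the mutants, against 2137 and 2189 TPM in the siblings (limma log2 fold change -2.41 ± 0.89 SE, adjusted p-value 0.0258). The mean was 616 ± 655 TPM in the mutants and 2163 ± 36.7 TPM in the siblings (SD, n = 2 each). The mutant libraries thus lay 7.06-fold apart while the siblings differed by a factor of 1.02. Leaving out a sibling library ended the call, with a log2 fold change of -2.43 without library 1 and -2.39 without library 2, while leaving out mutant library 1 or 2 moved it to -3.82 or -1.003. By rank within a library gapdhs remained near the top, at percentile 99.9 and 99.4 of all genes in the mutants and 99.9 in both siblings. Its paralogue gapdh had the opposite order between the mutant libraries, with 13.1 and 106 TPM in the mutants and 46.4 and 111 TPM in the siblings. The groups of gapdh overlapped (limma log2 fold change -0.90 ± 0.88 SE, adjusted p-value 0.367). How reads that fit both of 2 similar paralogues were shared out is not given in the sources used here, so the split between such pairs is uncertain.

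Most of the summed level of the pathway came from gapdhs, except in mutant library 2. The 31 glycolytic enzyme genes summed to 1687 and 753 TPM in the mutants and to 3178 and 3186 TPM in the siblings. As a share of the TPM listed in a library this was 0.280% and 0.157% in the mutants and 0.391% and 0.432% in the siblings. Of that sum gapdhs made up 63.9% and 20.3% in the mutants and 67.2% and 68.7% in the siblings. Without gapdhs the other 30 genes summed to 609 and 601 TPM in the mutants and to 1041 and 997 TPM in the siblings, so that the 2 mutant libraries were then close to each other. With the median of the sensory receptor and crystallin genes subtracted in each library, the same 30 genes summed to 375 and 292 TPM in the mutants and to 980 and 895 TPM in the siblings. The sums are a description and were not tested.

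Like gapdhs, the erythroid, endothelial and epidermal marker sums were lowest in mutant library 2 and higher in both siblings than in either mutant. The sums of venous and lymphatic markers and of mural and fibroblast markers had this order too, and those of neural and liver markers did not. The total listed TPM also had it, with 602394 and 481065 in the mutants and 813042 and 736606 in the siblings. The order is therefore not particular to gapdhs and these cell types. The other sums given above did not follow gapdhs in this way, with muscle lowest and myeloid highest in mutant library 1. Of 10 erythroid markers 7 were found, and they summed to 1373 and 507 TPM in the mutants and to 3559 and 2982 TPM in the siblings, most of it embryonic globin. In the mutants 3 and 4 of the 7 were above the limit, against 5 in each sibling library. Outside the globins, cahz was above it in 3 libraries, slc4a1a in 2, alas2 in 1 and gata1a in 0. The 14 endothelial markers summed to 1729 and 502 TPM in the mutants and to 4928 and 3974 TPM in the siblings. Relative to the endothelial sum, gapdhs stood at 0.624 and 0.304 in the mutants and at 0.434 and 0.551 in the siblings, and these ratios overlapped. The sum of the other 30 glycolytic genes, divided by the endothelial sum, was 0.352 and 1.20 in the mutants. In the siblings this ratio was 0.211 and 0.251, so it was higher in both mutants, unlike the sums themselves. No background was subtracted in these ratios. Background made up a larger part of the 30-gene sum in the mutants, as the subtracted sums above show. Nothing is therefore read from the order of the ratios. The part of these cell types in the level of gapdhs and of the other genes was not tested.

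Phosphoglycerate kinase and phosphoglycerate mutase follow, and neither changed by the test. Of pgk1, which makes the first ATP of the pathway, 9.37 and 33.3 TPM were found in the mutants and 64.0 and 16.5 TPM in the siblings. The spread within each group was larger than the difference between the groups. The mutase gene pgam1a was the most abundant member with a higher mean in the mutants, with 72.6 and 26.1 TPM in the mutants and 23.0 and 27.1 TPM in the siblings. Its groups overlapped (limma log2 fold change 0.78 ± 0.82 SE, adjusted p-value 0.408), and its sign turned under median-of-ratios rescaling. The muscle mutase gene pgam2 was above the limit in sibling library 2 alone, the library with the highest muscle marker sum. Also above the limit in that library alone were aldoab, hk1, slc2a10 and gpd1l. The part of muscle RNA in the pgam2 values was not tested.

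Enolase expression came mostly from eno3 in the siblings, the gene whose mammalian counterpart is the enolase of muscle. The gene fell to 89.7 and 22.2 TPM in the mutants, against 240 and 215 TPM in the siblings (limma log2 fold change -2.32 ± 0.93 SE, adjusted p-value 0.0345). The call on eno3 was lost without mutant library 2 (log2 fold change -1.33), sibling library 1 (-2.24) or sibling library 2 (-2.39). The muscle marker sums of the libraries, given above for aldoab, were lower in the mutants too, with 360 and 531 TPM against 694 and 1849 TPM. Within each group, however, the library with the higher muscle sum had the lower eno3 value. The part of muscle RNA in the eno3 values was not tested. The gene eno1a, counterpart of the enolase found in most tissues, had 31.1 and 17.04 TPM in the mutants and 18.3 and 20.5 TPM in the siblings, with groups that overlapped. In the siblings eno3 made up 90.7% and 87.2% of the enolase TPM, against 63.7% and 26.3% in the mutants. The share in mutant library 2 includes 4 enolase genes that were under the limit there.

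Pyruvate kinase, which makes the second ATP, was represented by pkma. It fell to 7.45 and 10.6 TPM in the mutants, against 79.7 and 31.8 TPM in the siblings (limma log2 fold change -2.38 ± 0.76 SE, adjusted p-value 0.0162). Without sibling library 1 the call on pkma was lost (log2 fold change -1.73). Both mutant values were under the limit and at percentile 41.6 and 43.8 of all genes, against percentile 94.2 and 89.2 in the siblings. The other pyruvate kinase genes, pkmb and PKLR, were at or under the limit in all 4 libraries. Pyruvate kinase was therefore a step with no gene above the limit in either mutant library.

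Lactate dehydrogenase genes were carried by the B form. Expression of ldhba, whose mammalian counterpart predominates in oxidative tissues such as heart, fell to 50.2 and 56.3 TPM in the mutants, against 382 and 178 TPM in the siblings (limma log2 fold change -2.27 ± 0.94 SE, adjusted p-value 0.0378). The mutant values lay close together and the siblings 2.15-fold apart. The call on ldhba was lost without sibling library 1 (log2 fold change -1.73) or sibling library 2 (-2.82). The A form ldha, which predominates in glycolytic muscle of mammals, had 10.8 and 38.8 TPM in the mutants and 42.6 and 70.5 TPM in the siblings. Its groups did not overlap, but the difference did not pass (limma log2 fold change -1.37 ± 0.83 SE, adjusted p-value 0.142).

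The mitochondrial D-lactate dehydrogenase gene ldhd acts on the other lactate isomer and was called higher in the mutants. It had 23.6 and 12.8 TPM in the mutants and 2.21 and 5.23 TPM in the siblings (limma log2 fold change 2.04 ± 0.59 SE, adjusted p-value 0.0108). The fold change of ldhd lay 0.88 above the median log2 fold change of all tested genes. Only mutant library 1 exceeded its limit. Leaving out mutant library 1, mutant library 2 or sibling library 1 ended the call, with log2 fold changes of 1.63, 2.46 and 1.56.

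Glycerol phosphate dehydrogenase held the member with the largest difference. Expression of gpd1c, a gene for the cytosolic NAD-dependent form, fell to 0.489 and 0.657 TPM in the mutants, against 96.1 and 57.4 TPM in the siblings. The mean was 0.573 ± 0.119 TPM in the mutants and 76.8 ± 27.4 TPM in the siblings (SD, n = 2 each). The change was -5.58 ± 0.63 SE on the log2 scale (limma, adjusted p-value 4.94e-15), and the call held without each of the 4 libraries. Its percentile among all genes was 2.86 and 2.75 in the mutants and 94.97 and 93.1 in the siblings. TPM does not show whether a low value comes from fewer transcripts or from fewer reads that could be aligned, which was not tested for gpd1c. The mutant values were below the 5th percentile of the 331 genes behind the background limit, which was 3.80 and 6.04 TPM in the mutant libraries. Of the 2313 genes with a sibling mean of at least 50 TPM, gpd1c was the only 1 with both mutant values under 1 TPM, a rule chosen after its values were seen.

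The other genes of this enzyme had smaller differences. The cytosolic form gpd1a had 96.6 and 5.68 TPM in the mutants and 126 and 96.9 TPM in the siblings, and was called lower (limma log2 fold change -2.12 ± 0.88 SE, adjusted p-value 0.0377). Mutant library 1 was near the level of sibling library 2, while mutant library 2 was at percentile 8.08 of its genes, 17.005-fold under mutant library 1. The call on gpd1a was lost without mutant library 2 (log2 fold change -0.19), sibling library 1 (-1.94) or sibling library 2 (-2.31). The third cytosolic gene, gpd1b, had 6.44 and 7.48 TPM in the mutants and 10.4 and 15.5 TPM in the siblings (limma log2 fold change -0.79 ± 0.62 SE, adjusted p-value 0.263). The mitochondrial form gpd2, which hands electrons to the respiratory chain, was at or under the limit in all 4 libraries. The related gene gpd1l was above it in sibling library 2 alone.

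Of the genes that matched by spelling only, pgam5 had 9.40 and 13.1 TPM in the mutants and 36.7 and 22.1 TPM in the siblings, with groups apart but no call. The values of pkmyt1 were 29.7 and 16.6 TPM in the mutants and 27.9 and 5.86 TPM in the siblings, and its groups overlapped. SLC2A4RG was at or under the limit throughout. None of the 3 was called in either direction, and the counts over 78 members include them.

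Ratios between related members within a library are little affected by how libraries are scaled, apart from the pseudocount and any background. Of the 21 pairs examined, 7 had both genes above the limit in at least 2 libraries. With 2 libraries against 2, no exact permutation test can give a two-sided p-value under 0.333, and the smallest value adjusted over the 21 pairs was 0.70, so the ratios are given as a description. For eno1a to eno3 the log2 ratio was -1.4995 and -0.36 in the mutants and -3.64 and -3.33 in the siblings, a difference of 2.56. All of these values were above the limit except that of eno1a in mutant library 2. The log2 ratio of tpi1a to tpi1b was -1.59 and -1.80 in the mutants and -0.27 and -0.42 in the siblings. That of gpd1c to gpd1b was -2.32 and -2.36 in the mutants and 3.09 and 1.83 in the siblings. These 2 pairs had both genes above the limit in the siblings alone, with tpi1a, gpd1c and gpd1b under it in both mutant libraries, so that their mutant ratios rest on background levels and nothing is read from the separation. In these 3 pairs the groups did not overlap. The other 4 pairs overlapped between groups. Among them, the log2 ratio of ldhba to ldha was 2.12 and 0.53 in the mutants and 3.14 and 1.33 in the siblings, and that of gapdhs to gapdh was 6.26 and 0.52 in the mutants and 5.49 and 4.30 in the siblings.

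**Figure D3:**
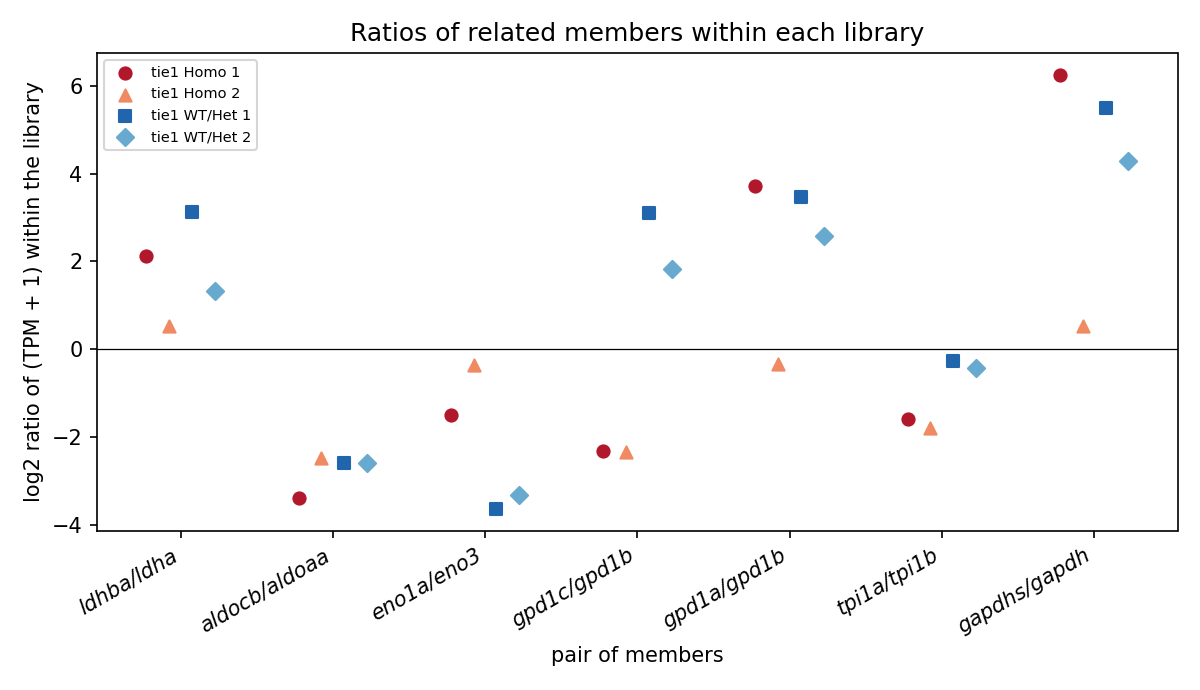
Log2 ratio of TPM + 1 of 7 pairs of related members within each library, with the 2 tie1 Homo libraries (red) left of the 2 tie1 WT/Het libraries (blue) for each pair. The groups are apart for eno1a/eno3, gpd1c/gpd1b and tpi1a/tpi1b and overlap for the other 4 pairs.

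Counted over all 78 members, 8 were called lower and 30 higher in the mutants by limma at an adjusted p-value under 0.05. Across all tested genes 4.43% were called lower and 44.6% higher. Members had a median log2 fold change of 1.00 and all genes one of 1.17. Only 2 of the 30 members called higher, pfkfb4a and ldhd, exceeded the limit in any library. The other 28 were among the 37 members under it throughout, and of all genes under it throughout 70.1% were called higher. The largest of these differences was in eno1b, with 5.97 and 16.98 TPM in the mutants and 1.14 and 2.16 TPM in the siblings. Next in size were 8 further such genes (slc2a15b, slc2a1b, slc2a9l1, pfkma, pfkpb, aldoca, slc2a11l and the second SLC2A13 entry), with log2 fold changes between 1.61 and 1.82.

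The 8 members called lower were gapdhs, ldhba, eno3, gpd1a, gpd1c, pkma, tpi1a and aldocb. All 8 had a mean of at least 20 TPM, where genes in general were often called lower. Of the 8 members with a mean of at least 50 TPM, 4 were called lower, against 33% of all genes at that level. Of the 11 members with a mean of 20 to 50 TPM, 4 were called lower, against 24.1% of all genes at that level. The median log2 fold change was -1.99 for members of 50 TPM or more, against -1.67 for all genes of that level. At 20 to 50 TPM it was -1.28 for members and -0.98 for all genes. These counts of members are small and their shares lie near those of other genes of similar level, so no change particular to the pathway is read from them.

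**Figure D4:**
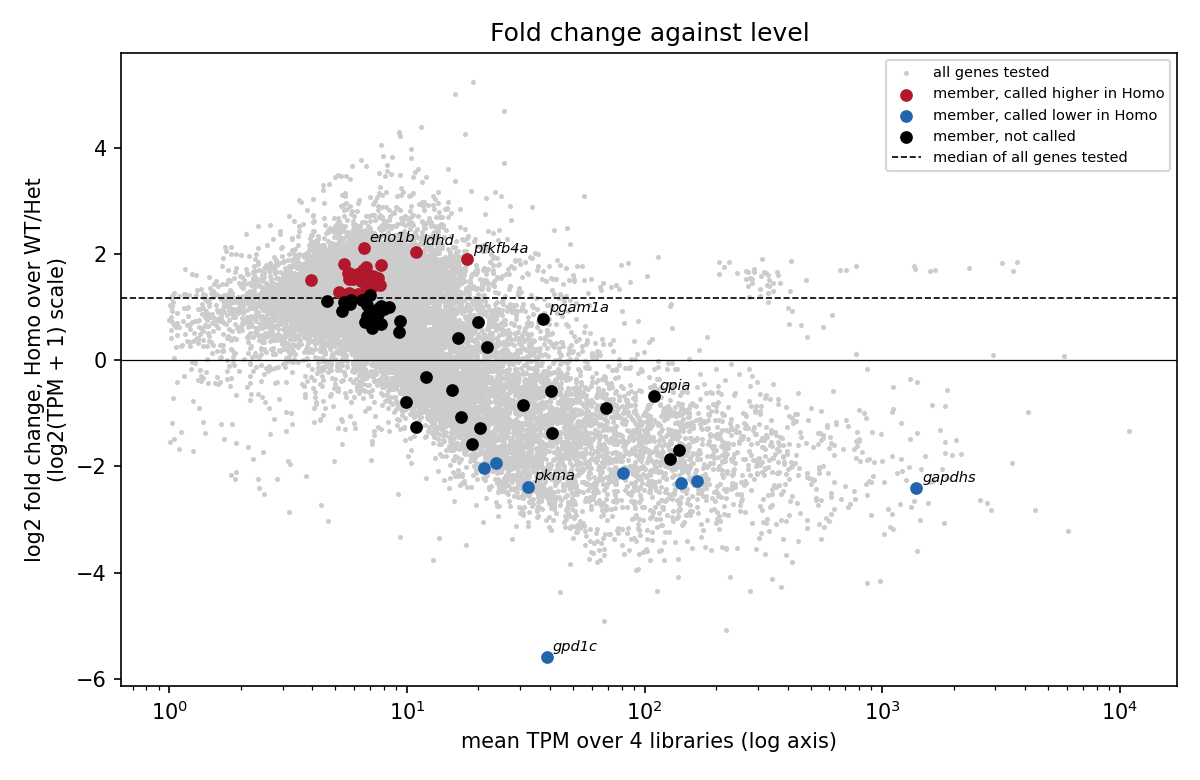
Log2 fold change of tie1 Homo over tie1 WT/Het against mean TPM (log axis), with all 28301 tested genes in grey and the 78 members in red (called higher), blue (called lower) or black (not called). Members follow the slope of the grey cloud from above 0 at low levels to below 0 at high levels, and gpd1c lies at -5.58, the lowest value plotted.

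As a count that needs no model of the variance, members were counted where both mutant values lay on one side of both sibling values with at least a 2-fold change on the log2(TPM + 1) scale. There were 15 such members lower in the mutants, against 9.47% of all tested genes, and 38 higher, against 57% of all tested genes. Of the 8 members with a mean of at least 50 TPM, 6 were lower by this count, against 70.4% of all genes at that level. At 20 to 50 TPM the count was 6 of 11 members, against 46% of all genes. Of the 37 members never above the limit 36 were higher by this count, against 86.8% of all such genes. Of the 24 members detected above the limit in both siblings, 11 did not exceed it in either mutant, or 45.8%, against 41.7% of the 7320 genes with the same detection in siblings.

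The calls depended on the scale. With libraries rescaled by the median of ratios, with quantile normalization or with background subtraction, limma called 0 members higher and 0 lower. Of all tested genes it also called 0 in either direction. Unadjusted p-values under 0.05 were then found for 3 higher and 15 lower members with the first treatment, 1 higher and 9 lower with the second, and 0 higher and 10 lower with the third. The matching unadjusted counts over all genes are not given here, so no change particular to the pathway is read from these. The median log2 fold change of all genes was 0.03 with the first, 0.05 with the second and -1.12 with the third. Each of the 8 members called lower kept a negative log2 fold change in all 14 alternatives tried. The filters, the fit without a trend and the replicate block leave that value unchanged, so they cannot test its sign. The uncalled members aldoaa, pfkfb4b and ldha were also negative in all 14 alternatives. The fold change of gpd1c ranged from -6.80 to -3.83 over them, and its limma adjusted p-value was under the threshold in 11 of the 14 and at most 0.206. That of gapdhs ranged from -3.82 to -1.003 and its call held in 5 of the 14. Among uncalled members, gpia, tpi1b and gapdh turned positive under quantile normalization.

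**Figure D5:**
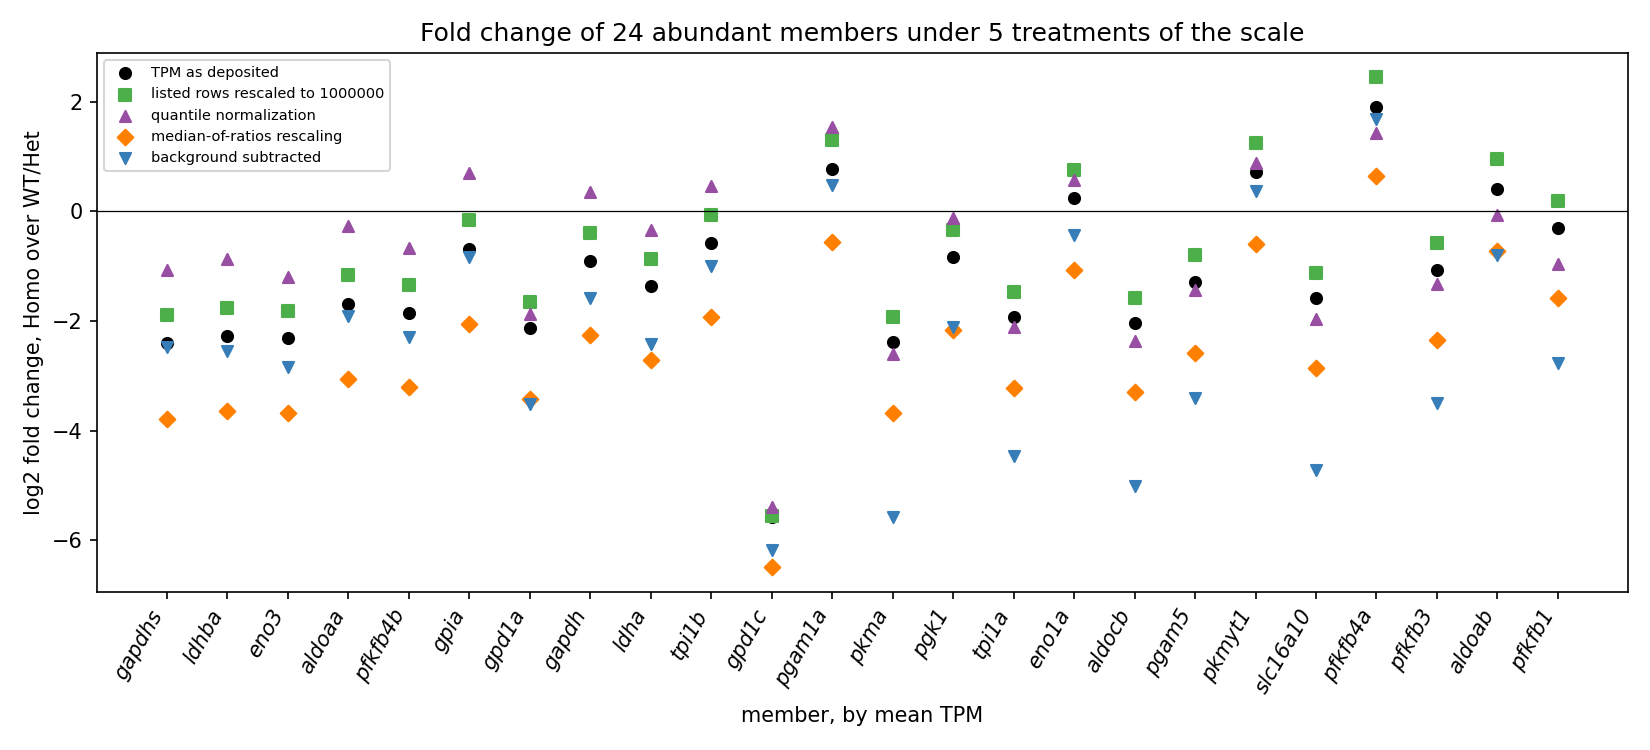
Log2 fold change of tie1 Homo over tie1 WT/Het for 24 of the 25 most abundant members under TPM as deposited and 4 other treatments of the scale. All 5 values of gpd1c lie under -5 and all 5 of pfkfb4a above 0, while the 5 values of pgam1a, eno1a and aldoab lie on both sides of 0.

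Genes of neighbouring pathways were examined from fixed lists, of which 132 of 156 symbols were found. Of the 132 genes, 4 were called lower and 43 higher, with 50 genes at or under the limit in every library. Across all tested genes the shares were 4.43% and 44.6%, so that both counts lie under the background. The list of 29 genes around pyruvate and malate in mitochondria included bsg, EMB, got1 and me1. It also held dld beside dldh, although dld is in zebrafish the symbol of the Notch ligand gene deltaD. Its counts are therefore not those of mitochondrial enzymes alone. The 4 genes that fell were all in this list, and 7 of its genes, dld among them, were called higher. All 4 had a mean over 20 TPM, where 24.1% (20 to 50 TPM) and 33% (50 TPM or more) of all genes were called lower. Expression of pdhb, a subunit of pyruvate dehydrogenase, fell to 59.3 and 14.4 TPM in the mutants, against 217 and 259 TPM in the siblings (limma log2 fold change -2.96 ± 0.92 SE, adjusted p-value 0.0148). The dlat gene of the same complex fell to 9.17 and 17.8 TPM in the mutants, against 57.4 and 44.6 TPM in the siblings. The mitochondrial carrier gene slc25a11, which exchanges malate for oxoglutarate, fell to 7.81 and 10.1 TPM in the mutants, against 74.7 and 114 TPM in the siblings. The malic enzyme gene me3 fell to 34.4 and 16.8 TPM in the mutants, against 86.9 and 125 TPM in the siblings. Of these 4 genes, slc25a11 kept its call without each of the 4 libraries (limma log2 fold change -3.23 ± 0.81 SE, adjusted p-value 0.00368). The call on pdhb was lost without sibling library 1 (log2 fold change -3.09) or 2 (-2.84), and that on dlat without any 1 library (-2.34 to -1.46). That on me3 was lost without mutant library 2 (-1.57), sibling library 1 (-2.33) or sibling library 2 (-1.81).

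The counts of the other lists are to be read against the same shares of all genes, 44.6% called higher and 4.43% lower. Without adjustment, 1705 of the 28301 tested genes had a limma p-value under 0.05 and were lower. At a mean of at least 50 TPM these were 797 of 1788 genes, and at 20 to 50 TPM 684 of 2199. In the pentose phosphate list 0 of 12 genes were called lower and 2 were called higher by limma, while 5 had an unadjusted p-value under 0.05 and were lower. Of these 5, TALDO1, rpe and pgd had a mean over 50 TPM, prps1b one of 49.4 TPM and pgls one of 10.7 TPM. Many genes of 20 TPM or more were lower, so TALDO1, rpe, pgd and prps1b are not read as an excess. The level of pgls lay under that range, and nothing is read from that gene alone. The most abundant member of the list, TALDO1, transaldolase, had 44.5 and 36.0 TPM in the mutants and 205 and 142 TPM in the siblings (limma log2 fold change -2.06 ± 0.92 SE, adjusted p-value 0.0509). In the glycogen list gyg1a, a gene for the glycogenin primer of glycogen, was called higher in the mutants. Mutant values were 15.1 and 26.9 TPM, or 1.09 and 1.43 times the limit of each library. Sibling values were 2.55 and 13.9 TPM, or 0.65 and 2.16 times the limit, so sibling library 2 stood furthest above its limit. The limma log2 fold change of gyg1a was 1.54 ± 0.65 SE (adjusted p-value 0.0409), only 0.38 above the median of all tested genes. Its call was lost without mutant library 1 (log2 fold change 1.94), mutant library 2 (1.15) or sibling library 1 (0.51). Of the 24 genes of that list limma called 10 higher and 0 lower, also 0 lower without adjustment. The lists of gluconeogenesis (16 genes, 7 higher), glycerol and glycerolipid genes (16 genes, 7 higher) and other sugar kinases (8 genes, 4 higher) had 0 genes called lower by limma, and without adjustment 1, 1 and 0 genes passed 0.05 and were lower.

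Of the 27 genes of hypoxia-inducible factors and regulators of glycolysis, 6 were called higher and 0 lower by limma, and 1, hif1al, was lower without adjustment. The log2 fold change was above 0 for 15 of the 27 and below 0 for 12. It was largest for egln2, which was called higher (limma log2 fold change 2.36 ± 0.55 SE, adjusted p-value 0.00158). Values of egln2 were 24.8 and 9.29 TPM in the mutants and 2.51 and 1.85 TPM in the siblings, above the limit in mutant library 1 alone. The hif1ab gene, a counterpart of HIF1A, the factor that drives glycolytic genes when oxygen is low, had 11.4 and 12.1 TPM in the mutants and 31.3 and 23.6 TPM in the siblings. Only the sibling values exceeded the limit, and the difference did not pass (limma log2 fold change -1.14 ± 0.73 SE, adjusted p-value 0.165). For txnipa, counterpart of a gene that restrains glucose uptake and follows glucose supply in mammals, 142 and 58.9 TPM were found in the mutants and 230 and 197 TPM in the siblings (limma log2 fold change -1.21 ± 0.95 SE, adjusted p-value 0.260).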

How the data were processed

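Deposited values were TPM per gene in 1 file a library, a unit named in the file headers, over 29027 rows. The submitters' processing notes name Trim Galore 0.6.6, cutadapt 2.8, HISAT2 2.2.1, SAMtools 1.7, StringTie 2.1.4 and the build GRCz11; the annotation is not given in the sources used here. RNA was amplified with a low-input kit, per the labels' protocols. TPM keeps no read depth, so no counting intervals were computed. The listed TPM summed to between 481065 and 813042 per library, not to 1000000. Groups came from the sample titles.

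limma 3.58.1 in R 4.3.3 was fitted on log2(TPM + 1) over the genes with a mean of at least 1 TPM (28301 genes), with an intensity trend, two-sided, Benjamini-Hochberg adjusted over all genes. A fold change on this scale understates that of low genes. The fit has 2 residual degrees of freedom, and its variances came almost wholly from the trend, so an SE or p-value does not measure the spread of that gene's own replicates. The fit was also run on simulated data with equal noise at every level and no general shift between the groups. That run does not bear on calls made under the shift seen here. Exact permutation tests used all regroupings of the libraries. Values per library are given for the 25 most abundant members and the 10 largest further calls with groups apart, and for called neighbours with a group mean of at least 20 TPM. Of these members 1 is counted in the totals but not reported here. Naming slc2a1a, slc2a12, gpd1b, TALDO1, hif1al, egln2, hif1ab and txnipa was decided after their values were seen. The members, lists and tests were chosen with earlier results of these data known. Alternatives were 3 other scalings, background subtraction, other pseudocounts and filters, no trend, a replicate block and leaving out each library.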

Additional observations from a re-analysis of the deposited data

How the results depend on the processing

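Of the member counts, the 30 called higher became 0 after background subtraction, after quantile normalization, after median-of-ratios rescaling and a mean of at least 10 TPM; at that filter 2 members were higher at an unadjusted p-value under 0.05. The 8 called lower became 0 under the first 3 of these, 4 with the listed rows rescaled to 1000000, 1 at a mean of at least 10 TPM and 5 with the replicate block. Leaving out 1 library gave 0 to 40 members called higher (0 without sibling library 1, 40 without sibling library 2, 1 without either mutant library) and 1 to 8 called lower (8 and 5 without mutant libraries 1 and 2, 1 and 3 without sibling libraries 1 and 2); there a group is 1 library that is assumed to vary like the other group. The member called lower without sibling library 1 was gpd1c. Without mutant library 1 or 2 the median log2 fold change was 1.18 or 0.87 for members and 1.35 or 0.95 for all tested genes. Without sibling library 1 or 2 it was 0.91 or 1.42 for members and 0.94 or 1.42 for all tested genes. Members thus moved with all genes, and the swings in their counts are not read as particular to them. The 38 members apart and higher became 4 under quantile normalization, 1 under median-of-ratios rescaling, 3 after background subtraction, 9 with a pseudocount of 5 and 2 at a mean of at least 10 TPM. The 15 apart and lower became 23 under median-of-ratios rescaling. The matching shares of all genes under these treatments are not given here, so no change particular to the pathway is read from these counts of members apart. Of the neighbours, the 43 called higher became 0 under the first 3 treatments and at a mean of at least 10 TPM, 21 without a trend, and 1 to 51 without 1 library (1 without either mutant library, 2 and 51 without sibling libraries 1 and 2). The 4 called lower became 0 under the first 3, 2 with rescaling to 1000000, 8 with a pseudocount of 0.1, 1 at a mean of at least 10 TPM, 15 without a trend, 2 with the replicate block, and 1 to 15 without 1 library (15 and 4 without mutant libraries 1 and 2, 1 without either sibling library). Neighbours at an unadjusted p-value under 0.05 were 0 higher and 34 lower, 2 higher and 10 lower, and 0 higher and 20 lower under the treatments by median of ratios, by quantiles and by subtraction. These counts of neighbours likewise stand without a share of all genes, and no change particular to the lists is read from them. The log2 ratio of summed glycolytic TPM, -1.38, was between -2.08 and -0.92 without 1 library, the lower without mutant library 1 and the higher without mutant library 2.

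Signs that turned were those of uncalled members and overlapping ratios. The log2 fold change was 0.69 for gpia, 0.18 for txnipa, 0.36 for gapdh, 0.46 for tpi1b and -0.057 for aldoab under quantile normalization. It was -0.56 for pgam1a, -1.08 for eno1a, -0.59 for pkmyt1 and -0.73 for aldoab under median-of-ratios rescaling. It was -0.44 for eno1a and -0.79 for aldoab after background subtraction, and 0.18 for pfkfb1 with rescaling to 1000000. Without 1 library it ranged from -2.37 to 0.56 for gapdh, -1.79 to 0.11 for pgk1, -0.17 to 0.66 for eno1a, -0.32 to 1.76 for pkmyt1, -1.63 to 2.46 for aldoab and -1.26 to 0.63 for pfkfb1. Without 1 library the difference in log2 ratio ranged from -0.81 to 0.12 for aldocb/aldoaa, -3.37 to 0.69 for gpd1a/gpd1b and -4.37 to 1.36 for gapdhs/gapdh. The cause of these changes was not tested. The replicate numbers are shared between groups in the labels, but with 2 pairs they do not show a pairing (correlation of deviations 0.13 over 28301 genes).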
